A study of Mus musculus with 8 samples.

Results

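Sall1, Sall2, Sall3 and Sall4, the spalt-like zinc finger genes, and Etv1, Etv4 and Etv5, the Pea3 group of Ets genes, were followed in RNA sequencing of the olfactory bulb of 30-day-old mice. The genes were chosen by symbol, and all 7 had an entry among the 19583 gene entries of the expression table. The double mutant mice carried the hGFAP-Cre transgene together with Sp8 Flox/Flox and Sp9 Flox/Flox alleles, and the controls were wild type littermates. Both groups were on a background mixing C57BL/6J, 129S6 and CD1. Each group had 4 libraries of total RNA, named double mutant replicates 1 to 4 and wild type replicates 1 to 4, and the comparison asks how these genes' RNA differs in a bulb that developed with Sp8 and Sp9 deleted from hGFAP-Cre cells. Both deleted genes encode zinc finger proteins that act in the making of bulb interneurons, and the hGFAP promoter drives Cre in radial glia and the cells that descend from them, so deletion is not limited to interneurons. The labels name Cre and floxed alleles in the double mutant only, so an effect of the transgene or of the floxed alleles themselves cannot be told apart from loss of Sp8 and Sp9.

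The Sall proteins bind AT-rich DNA through paired zinc fingers and repress transcription by recruiting the NuRD histone deacetylase complex. Sall1 is known in adult brain chiefly as an identity factor of microglia, Sall3 takes part in the making of dopaminergic periglomerular interneurons of the olfactory bulb, and Sall4 is a gene of pluripotent and germ cells. The Pea3 factors are transcriptional activators that lie downstream of FGF and RET receptors through ERK kinase. Etv1, also called Er81, marks interneuron progenitors of the lateral ganglionic eminence and subventricular zone and the dopaminergic periglomerular cells, where it activates tyrosine hydroxylase, and Etv5 is also expressed in astrocytes.

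The libraries held an estimated 11888675 to 19040796 fragments and 13112 to 13481 genes at 1 FPKM (fragments scaled to transcript length in kilobases and to library size) or more. Letters A and B in the sample descriptions each cover 2 double mutant libraries, and letters C and D each cover 2 wild type libraries. The labels do not say whether libraries of a letter share an animal, so the p-values measure the spread between libraries, which may be technical. Xist, expressed from the inactive X chromosome, was at 76.9 to 79.96 FPKM in letter A, at 0.0364 to 0.0539 FPKM in letter B and at 104 to 115 FPKM in the wild type libraries, so letters A and B stand apart. Letter B alone was near 0, so Xist is not balanced between the groups. The targeted genes were low in every double mutant library: Sp8 was at 6.15 to 8.06 FPKM against 29.3 to 31.6 FPKM, and Sp9 was at 6.24 to 7.27 FPKM against 23.2 to 25.3 FPKM. The RNA of bulb interneurons and of mitral and tufted cells, the projection neurons of the bulb, was present in both groups, with Gad1 (the enzyme that makes GABA) at 199 FPKM in the double mutant and 473 FPKM in wild type, and Eomes (a mitral and tufted cell factor) at 84.0 and 45.6 FPKM.

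Sall1, Sall3 and Etv1 were at 56.7%, 58.4% and 56.9% of their wild type level in the double mutant, Etv5 was at 70%, Sall2 at 90.2% and Etv4 at 123%. Sall4 was close to 0 in both groups. Genes with a mean under 0.5 FPKM were not tested, which left 14349 genes and 6 members. With limma on log2(FPKM + 0.5) and Benjamini-Hochberg adjustment over all tested genes at 0.05, 5 members fell (Sall1, Sall2, Sall3, Etv1 and Etv5) and 1 rose (Etv4). In the same comparison 65.3% of all tested genes were called, so a call by itself is common here. Calls lower in the double mutant made up 36.5% of all tested genes, and calls higher 28.8%. Of the 6 members, 4 had groups that did not overlap, beside 59.1% of all tested genes, a share near that of the members. Since letters A and B stand apart, the log2 differences were also taken with each left out: without letter A they were -0.70 for Sall1, -0.70 for Sall3, -0.72 for Etv1 and -0.42 for Etv5, and without letter B they were -0.91, -0.74, -0.88 and -0.58, all called. Without letter A, Xist was near 0 in every double mutant library left and in no wild type library. That setting therefore cannot tell a difference that goes with Xist from the genotype. In bulk tissue, fewer cells of a type and less RNA per cell cannot be told apart.

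**Figure D1:**
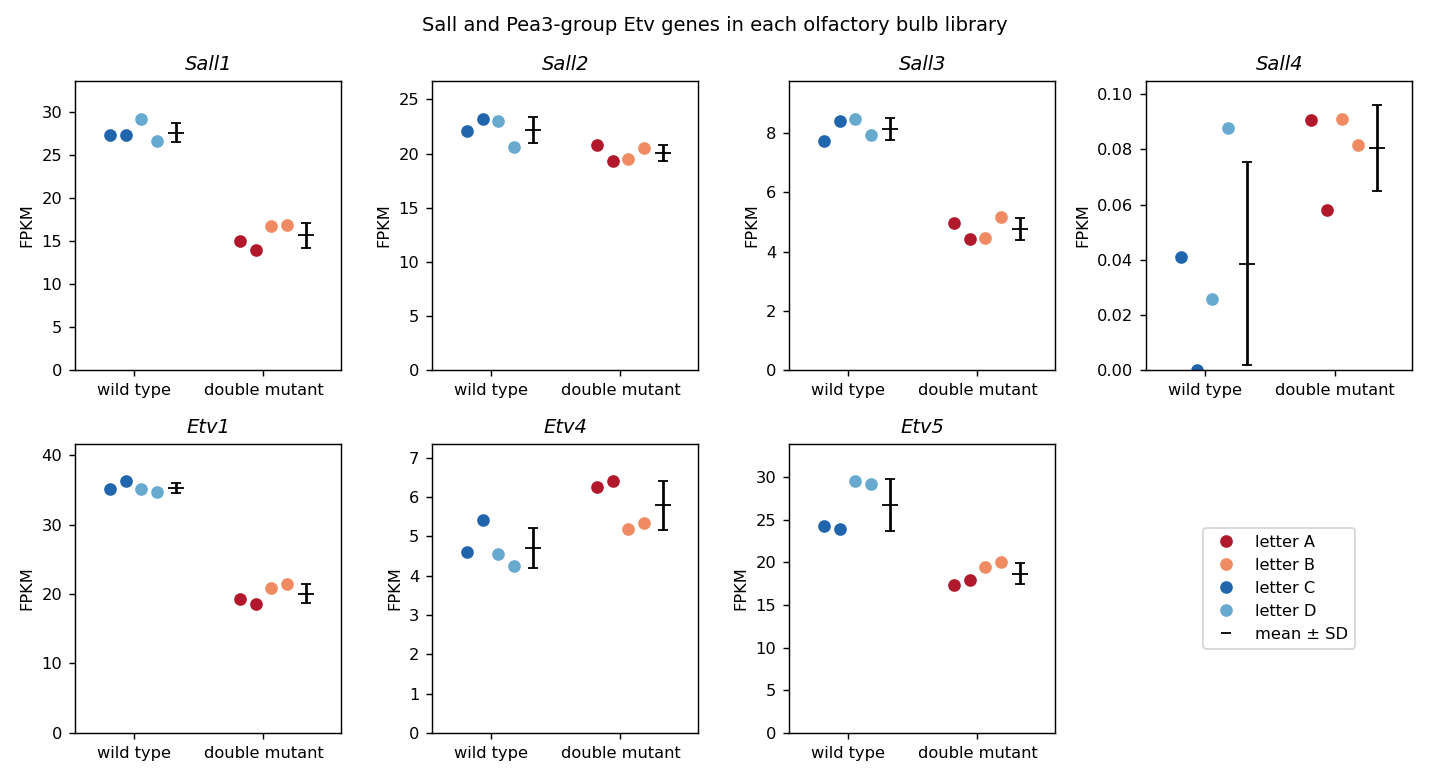
FPKM (vertical axes, from 0, each panel with its own range) of the 7 genes in each library, coloured by the letter of the sample description, with the group mean and SD (n = 4). Sall1, Sall3, Etv1 and Etv5 show separate groups, Sall2 and Etv4 overlap between groups, and Sall4 stays under 0.1 FPKM.

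Sall1, on the minus strand at chr8:89027235-89044162 of GRCm38, gave 14.98, 13.94, 16.81 and 16.92 FPKM in the double mutant libraries (replicates 1 to 4 in order, here and below) and 27.36, 27.33, 29.23 and 26.59 FPKM in the wild type libraries. Every double mutant library lay well below every wild type library. The means were 15.7 ± 1.45 FPKM (SD, n = 4) and 27.6 ± 1.13 FPKM (SD, n = 4). The log2 difference was -0.80 ± 0.06 (SE, limma adjusted p = 1.21e-06), and the exact two-sided permutation test over libraries gave 0.0286, the smallest p that 4 against 4 libraries allow. Only 3.5% of tested genes had a lower log2 difference. Within the double mutant, the letter A libraries averaged 14.2% below the letter B libraries, whereas letters C and D of the wild type differed by 2.09%.

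Several start sites of Sall1 have an upstream window of 250 bases in RefSeq (GRCm38.p6), and the 2 farthest upstream are shown because Sp-family factors bind GC boxes and the windows differ in that motif. The GC box was searched as GGGCGG on both strands and is in capitals, read as CCGCCC where it lies on the other strand. The farthest upstream window, chr8:89044163-89044412 on the minus strand, held no GC box, the next, chr8:89043513-89043762, held 4, and the third held 1.

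Sall1 farthest upstream start: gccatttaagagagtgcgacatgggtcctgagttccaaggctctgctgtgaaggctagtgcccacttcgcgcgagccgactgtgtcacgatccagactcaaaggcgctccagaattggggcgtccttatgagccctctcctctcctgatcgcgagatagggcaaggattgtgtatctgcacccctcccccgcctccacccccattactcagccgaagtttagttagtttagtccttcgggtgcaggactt
Sall1 second start: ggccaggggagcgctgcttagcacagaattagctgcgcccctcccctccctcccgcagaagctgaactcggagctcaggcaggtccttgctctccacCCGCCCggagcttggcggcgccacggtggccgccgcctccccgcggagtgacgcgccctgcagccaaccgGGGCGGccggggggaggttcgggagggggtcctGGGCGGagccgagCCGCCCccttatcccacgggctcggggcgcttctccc

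The GC content was 56.4% in the first window and 74.4% in the second, against a median of 52.4% over 32851 windows of the same length. A GC box was present in 32.7% of all windows, and 8.47% held 3 or more. A match describes letters only, and binding was not measured.

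Sall3 lies on the minus strand of chromosome 18 at positions 80966376 to 80986771. Its level was 4.948, 4.427, 4.458 and 5.183 FPKM in the double mutant against 7.723, 8.392, 8.48 and 7.938 FPKM in wild type. The groups did not overlap, and letters A and B of the double mutant differed by less than the spread of the group. The means were 4.75 ± 0.373 FPKM (SD, n = 4) and 8.13 ± 0.363 FPKM (SD, n = 4), a log2 difference of -0.72 ± 0.06 (SE), with a limma adjusted p of 2.48e-06 and an exact permutation p of 0.0286.

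Sall2, on the minus strand at chr14:52311172-52328762 and the Sall gene with broad expression in neurons, moved little. The double mutant libraries held 20.82, 19.33, 19.52 and 20.48 FPKM, and the wild type libraries 22.05, 23.22, 22.97 and 20.59 FPKM. The lowest wild type library lay inside the double mutant range, so the groups overlapped. The log2 difference was -0.14 ± 0.05 (SE), with a limma adjusted p of 0.0168 and an exact permutation p of 0.0571. This call was lost with upper quartile scaling of the libraries (-0.06, limma adjusted p = 0.286), quantile normalization (-0.05, 0.317), trimmed mean scaling (-0.11, 0.0578) and the deposited scaled columns (-0.09, 0.0804), and also without wild type replicate 2 (-0.12, 0.052), letter B (-0.14, 0.0613) or letter C (-0.12, 0.119).

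Sall4, on the minus strand at chr2:168748332-168767943, was at 0.0908, 0.0579, 0.0911 and 0.0816 FPKM in the double mutant and at 0.0409, 0, 0.0258 and 0.0876 FPKM in wild type, with wild type replicate 2 listed at 0. These values stand for an estimated 28 fragments over the 4 double mutant libraries and 12 over the 4 wild type libraries. The groups overlapped, and the exact permutation test gave p = 0.0857. A difference in Sall4 was not detectable at this depth, with 0 to 10 fragments in a library and up to 3 fragments allowed by a count of 0 (counting error only). Of the 5536 exonic bases of Sall4, 526 are shared with Gm14261 on the opposite strand, which has no entry of its own in the expression table. Whether counting used strand is not given, so reads of the pair cannot be told apart within those shared bases.

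Etv1, on the plus strand at chr12:38779380-38870484, was the most abundant of the 7 genes in wild type. Its level was 19.3, 18.59, 20.93 and 21.43 FPKM in the double mutant and 35.11, 36.22, 35.1 and 34.66 FPKM in wild type. The wild type libraries were within a narrow range, with a coefficient of variation of 1.89%, and all double mutant libraries lay far below it. The means were 20.1 ± 1.34 FPKM (SD, n = 4) and 35.3 ± 0.665 FPKM (SD, n = 4). The log2 difference was -0.80 ± 0.05 (SE), with a limma adjusted p of 1.51e-07 and an exact permutation p of 0.0286. As with Sall1, letter A lay below letter B, by 10.5%. The farthest upstream RefSeq window of Etv1, chr12:38779832-38780081 on the plus strand, is shown because Etv1 and Sall1 had nearly the same change.

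Etv1 farthest upstream start: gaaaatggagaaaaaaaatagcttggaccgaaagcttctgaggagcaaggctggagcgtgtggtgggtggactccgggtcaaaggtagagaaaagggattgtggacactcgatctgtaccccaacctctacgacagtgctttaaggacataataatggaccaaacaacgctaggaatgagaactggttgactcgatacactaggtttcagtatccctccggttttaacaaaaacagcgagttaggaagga

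It held no GC box, and its GC content was 46.4%. The window of the other annotated Etv1 start also held no GC box, but 241 of its 250 bases lie in Etv1 exons. Both windows lie inside the GENCODE span of Etv1, which starts at 38779380, so bases upstream of that start were not searched. The farthest upstream windows of Sall1 and Etv1 thus both held no GC box, while the later Sall1 windows held 4 and 1. The windows at hand are too few and too unlike to say whether these genes differ in this motif.

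Etv5, on the minus strand at chr16:22381309-22439719, was at 17.36, 17.89, 19.51 and 20.04 FPKM in the double mutant and at 24.25, 23.88, 29.5 and 29.23 FPKM in wild type. The groups did not overlap, but the wild type fell into its letters, with D 22.02% above C. The means were 18.7 ± 1.28 FPKM (SD, n = 4) and 26.7 ± 3.07 FPKM (SD, n = 4), a log2 difference of -0.50 ± 0.08 (SE), with a limma adjusted p of 0.000225 and an exact permutation p of 0.0286. Over 24 alternative analyses the log2 difference of Etv5 ranged from -0.64 to -0.36, and it was called in all of them. The farthest upstream window of Etv5 held 3 GC boxes, of which the stretch outside annotated exons, chr16:22439720-22439820 on the minus strand, holds 1 and is shown for comparison with the Sall1 windows.

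Etv5 upstream stretch: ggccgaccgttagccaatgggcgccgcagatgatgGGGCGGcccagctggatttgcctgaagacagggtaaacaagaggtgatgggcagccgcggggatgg

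The second Etv5 window and both Sall2 windows held no GC box. CCAAT, searched on both strands as a second common promoter element, was present 3 times in the farthest upstream Etv5 window and 1 time each in the second Etv5 window and the farthest upstream windows of Sall1 and Sall2. Outside annotated exons, the farthest upstream Etv5 window held 1 CCAAT and that of Sall2 held 0. Of all windows, exon bases included, 33.8% held it and 2.79% held 3 or more.

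Etv4, on the minus strand at chr11:101769742-101785371, went the other way. The double mutant libraries held 6.256, 6.398, 5.178 and 5.35 FPKM, and the wild type libraries 4.61, 5.425, 4.546 and 4.244 FPKM. Wild type replicate 2 lay above both letter B libraries of the double mutant, so the groups overlapped, and the high values were those of letter A, 20.2% above letter B. The means were 5.80 ± 0.62 FPKM (SD, n = 4) and 4.71 ± 0.505 FPKM (SD, n = 4). The log2 difference was 0.27 ± 0.09 (SE), with a limma adjusted p of 0.017 and an exact permutation p of 0.0857. Its call was lost without letter A (0.15, limma adjusted p = 0.184), without letter D (0.19, 0.147), without double mutant replicate 2 (0.23, 0.0516) and with the means of the letters as samples (0.27, 0.0707). Xist separates the same letters A and B, and the part of that difference between the libraries in Etv4 was not tested.

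FPKM is scaled to transcript length, so the levels of the members can be set in order. In wild type the order was Etv1, Sall1, Etv5, Sall2, Sall3, Etv4 and Sall4, and the neighbours Sall1 and Etv5 did not differ beyond their spread. In the double mutant Etv1 (mean 20.1 FPKM), Sall2 (20.0 FPKM) and Etv5 (18.7 FPKM) had overlapping ranges, Sall1 followed at 15.7 FPKM, and Etv4 at 5.80 FPKM and Sall3 at 4.75 FPKM touched in range.

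**Figure D2:**
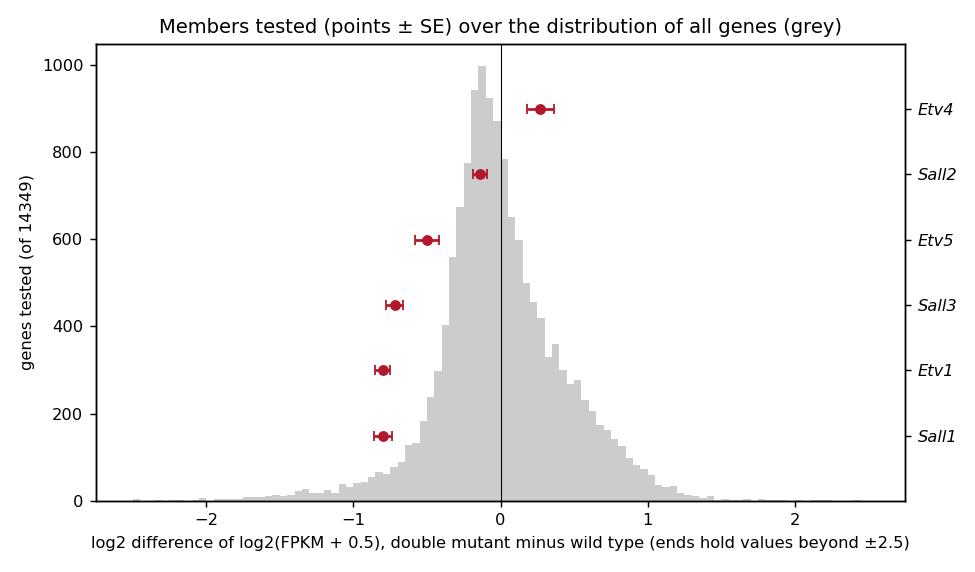
Log2 difference of log2(FPKM + 0.5), double mutant minus wild type (horizontal axis), for the 6 tested members as points with SE, over a histogram of the number of the 14349 tested genes (left axis). Sall1 and Etv1 lie at -0.80 in the lower tail, Sall2 is near the bulk of genes and Etv4 is above 0.

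The make-up of each family changed as well as its sum. The summed Pea3 group went from 66.7 ± 2.37 FPKM (SD, n = 4) in wild type to 44.6 ± 1.98 FPKM (SD, n = 4) in the double mutant, and the groups did not overlap. Etv1 made up 53.0% of that sum in wild type and 45% in the double mutant, while Etv4 went from 7.07% to 13.1%, both with no overlap between groups. A share also rises when the sum falls, and the FPKM of Etv4 itself overlapped between groups. The Etv5 share was 40.0% and 41.9%, with overlapping libraries. The Sall sum went from 58.0 ± 2.36 FPKM (SD, n = 4) to 40.5 ± 2.04 FPKM (SD, n = 4). Sall1, the leading Sall gene of wild type at 47.6% of the sum, stood at 38.6% in the double mutant, where Sall2 led with 49.5% against 38.3% in wild type.

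Whether members of a family changed by different amounts was tested on the log2 ratio of one member to another within each library, which library scaling moves only through the pseudocount of 0.5, for the 6 pairs with both genes tested. The Etv1 to Etv4 ratio was 1.55, 1.47, 1.92 and 1.91 in the double mutant and 2.8, 2.63, 2.82 and 2.89 in wild type. Its difference of -1.07 ± 0.13 (SE) had the largest size of the 6 pairs, and the groups did not overlap. The Etv1 to Etv5 ratio fell by 0.30 ± 0.09 (SE), with a difference of -0.15 without letter C and -0.46 without letter D. The Etv4 to Etv5 ratio rose by 0.77 ± 0.18 (SE). In the Sall family, the Sall1 to Sall2 ratio fell by 0.66 ± 0.07 (SE), and the Sall2 to Sall3 ratio rose by 0.57 ± 0.04 (SE). Each of these 5 pairs had an exact permutation p of 0.0286 and an adjusted p of 0.0343 over the 6 pairs. Their groups did not overlap, beside 59.1% of all tested genes on their own values. The members of these pairs already differed in the changes given above, so these p-values add no separate support. For Sall1 to Sall3 the difference was -0.08 ± 0.07 (SE), the groups overlapped and the exact permutation p was 0.286. The difference was 0.01 without letter A, -0.15 without double mutant replicate 3 and -0.18 without letter B, and the groups no longer overlapped in the last 2 of these.

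**Figure D3:**
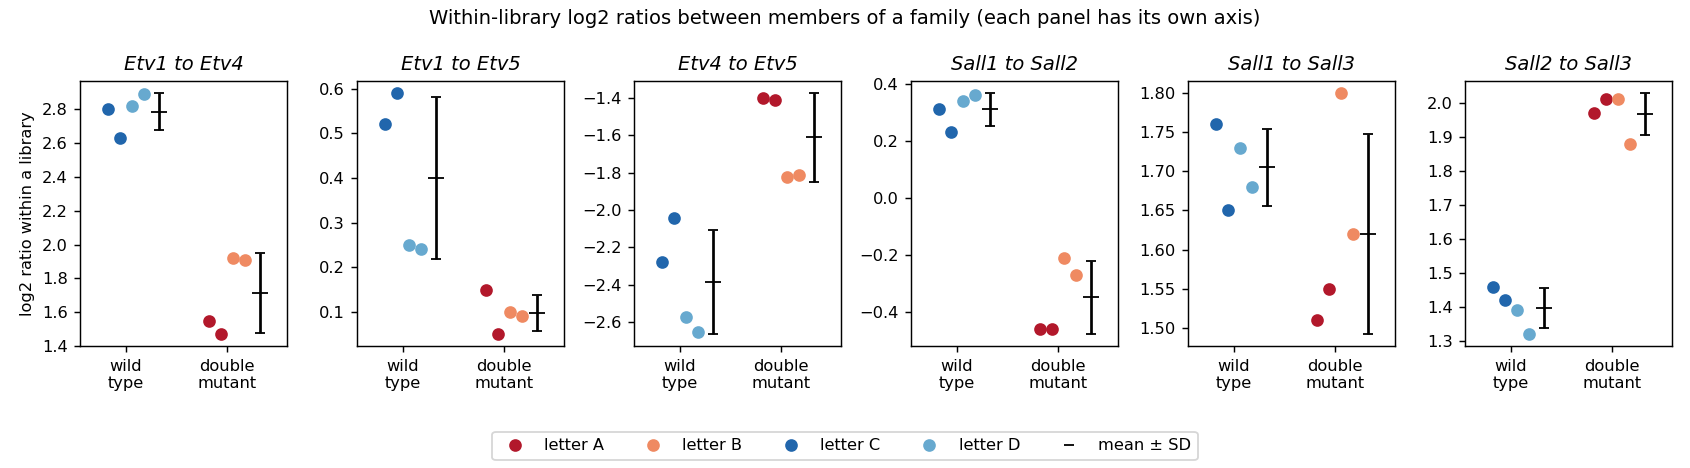
Log2 ratio of one member to another within each library (vertical axis, each panel with its own range that does not start at 0) for the 6 pairs, coloured by letter, with the group mean and SD (n = 4). The groups separate in every panel except Sall1 to Sall3.

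Markers of the cells known to express these genes moved in opposite directions, and the members were set against cell type markers in the same library. Of 13 microglia markers (genes such as P2ry12 and Cx3cr1), 10 rose, none fell and 3 were not called, with a median log2 difference of 0.38. Their summed level was 288.7 to 326.3 FPKM in the double mutant and 214.9 to 245.8 FPKM in wild type. Sall1, known as a microglial identity factor, changed relative to their mean by -1.26 ± 0.08 on the log2 scale (SE). That log2 ratio was 1.12 ± 0.10 (SD, n = 4) in wild type and -0.14 ± 0.11 (SD, n = 4) in the double mutant. Bulk RNA does not show which cells hold Sall1, so the ratio is not its level within microglia. The 8 astrocyte markers (Gfap, Aqp4 and others) all rose, with a median of 0.50 and a summed level of 1478 to 1521 FPKM against 1025 to 1128 FPKM. Relative to them the log2 difference of Etv5 was -1.07 ± 0.12 (SE) and that of Sall1 -1.38 ± 0.08 (SE).

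The 3 GABAergic neuron markers (Gad1, Gad2 and Slc32a1) all fell, with a median of -1.18 and a summed level of 264.5 to 311.1 FPKM against 645.5 to 676.2 FPKM. Single markers differed, with Gad1 at -1.25, Slc32a1 at -1.18 and Gad2 at -0.70. Etv1 and Sall1 (-0.80 each) fell more than Gad2, and Sall3 (-0.72) about as much. The direction against a single marker therefore depends on the marker. Relative to the mean of the 3 markers Etv1 was 0.24 ± 0.02 higher (SE, log2 scale), Sall1 0.24 ± 0.04 higher (SE) and Sall3 0.32 ± 0.05 higher (SE). Against the mean of 7 dopamine effector genes of periglomerular cells the same members were lower, Etv1 by a log2 difference of -0.85 ± 0.08 (SE), Sall1 by -0.85 ± 0.10 (SE) and Sall3 by -0.77 ± 0.09 (SE). All 9 marker ratios had groups that did not overlap, beside 59.1% of all tested genes on their own values. Each exact permutation p was 0.0286, the smallest possible, and stayed 0.0286 after adjustment over the 9. The members and lists already differed in the changes given above, so these p-values add no separate support. The part of each cell type in the members' change was not tested.

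**Figure D4:**
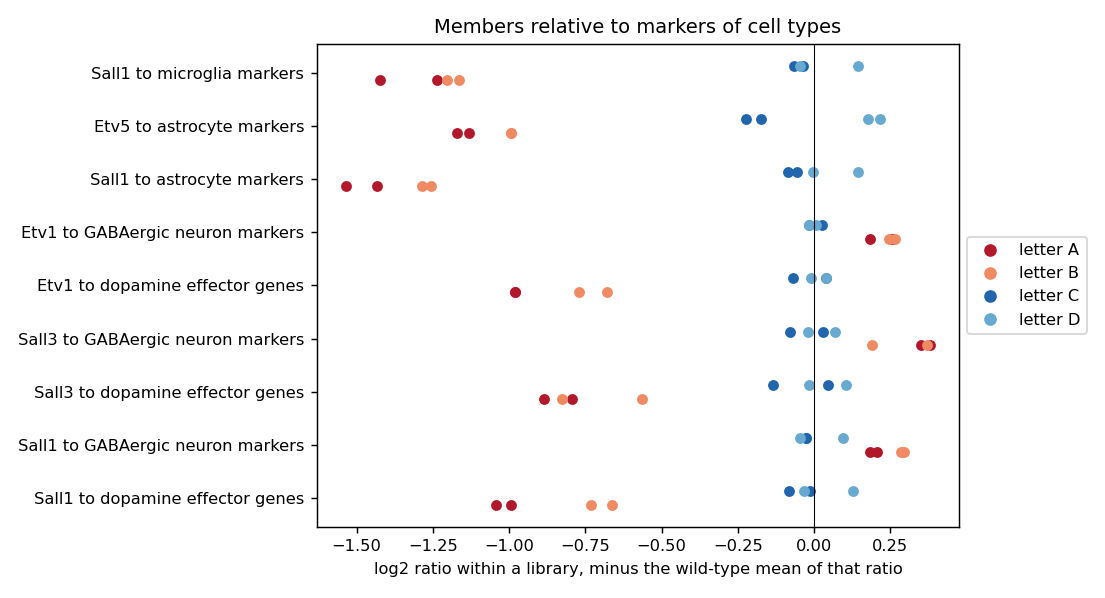
Log2 ratio of a member to the mean of a marker list within each library, minus the wild type mean of that ratio (horizontal axis), 1 point per library coloured by letter (4 libraries per group). The ratios to microglia, astrocyte and dopamine lists lie below 0 in the double mutant, and the ratios to GABAergic markers lie above 0.

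Markers of other cells also moved with the comparison. All 4 olfactory ensheathing cell markers (median 1.02), 4 olfactory sensory neuron markers (0.92), 6 meningeal markers (0.94), 5 endothelial markers (0.54), 5 dividing cell markers (1.88), 3 oligodendrocyte precursor markers (0.32) and the 2 tested ependymal markers (0.82) rose. Of 7 mitral and tufted cell markers 6 rose and 1 was not called (0.74), of 4 oligodendrocyte markers 1 rose (0.02), and of 3 migrating neuroblast markers 2 fell (-0.61). None of the tested marker genes was at 0 in any library, and their part in the members' values was not tested.

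The genes whose pattern over the 8 libraries was closest to each member's were found by the root mean square distance of centred log2(FPKM + 0.5) values among 12479 genes. For Sall1 they were Prickle1 (a planar cell polarity protein, distance 0.038), Add2 (beta-adducin of the membrane skeleton, 0.041) and Pak7 (a p21-activated kinase, 0.043). Etv1 was the fourth closest gene to Sall1, at 0.045. For Etv1 the closest were Add2 (0.020), Dapk1 (a death-associated protein kinase, 0.022) and Pitpnm3 (0.029), and Sall1 ranked 23. Add2 itself was at 22.3 ± 1.44 FPKM (SD, n = 4) in the double mutant and 39.5 ± 0.718 FPKM (SD, n = 4) in wild type.

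Sall3 was closest to Arid3b (an AT-rich DNA binding factor, 0.034), Bend7 (0.044) and Kdm6b (a histone H3 lysine demethylase, 0.045), and Etv1 ranked 65 for it. Etv5 was closest to Paqr9 (0.039), Nphp4 (0.042) and Stk39 (0.046), which also had a larger spread in wild type. Among the genes closest to Sall2 were Zak (0.025) and Ciz1 (0.032), and Etv4 was closest to Cntn3 (0.052), Dbp (a clock output factor, 0.055) and Kif9 (0.061). The nearest other member ranked 8598 for Sall2 and 5577 for Etv4. These distances describe 8 libraries in 2 groups and carry no test.

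Around the members, the genes of the FGF, RET and ERK pathway were read from lists, each set beside the 4127 higher and 5237 lower calls and the median log2 difference of -0.04 of all 14349 tested genes. The lists and the counts describe these libraries and carry no test of their own. Among the 6 tested ligands, 2 rose, 2 fell and 2 were not called, with a median of -0.07. Fgf1, the most abundant, rose from 18.8 ± 0.53 to 27.4 ± 0.561 FPKM (SD, n = 4 each), a log2 difference of 0.53 ± 0.03 (SE, limma adjusted p = 3.04e-07). Fgf10, a ligand of the Fgfr2 splice form of epithelia, fell from 2.68 ± 0.256 to 0.385 ± 0.0576 FPKM (SD, n = 4 each), a log2 difference of -1.84 ± 0.09 (SE, limma adjusted p = 5.83e-08). The other call upward, Fgf2, was named after its values were seen, and the count upward was 1 without double mutant replicate 1, without wild type replicate 3, without letter D or with letters as random blocks. With the filter at a mean of 2 FPKM, under which fewer genes are tested, the count downward was 1.

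All 7 tested receptors were called, 4 higher and 3 lower, with a median of 0.19. Fgfr1, the most abundant FGF receptor here, rose from 25.97 ± 0.68 to 40.8 ± 1.25 FPKM (SD, n = 4 each), a log2 difference of 0.64 ± 0.03 (SE, limma adjusted p = 8.82e-08). Gfra1, the GDNF co-receptor of RET, rose by 0.91 ± 0.08 (SE, limma adjusted p = 3.64e-06).

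Of the ERK kinases and the proteins that restrain the Pea3 group (Capicua with its Ataxin-1 partners, and the ubiquitin ligase subunits Cop1 and Det1), 9 were tested, 1 rose, 5 fell and 3 were not called, with a median of -0.17. Map2k1, which encodes the ERK kinase MEK1, fell from 150 ± 3.40 to 63.8 ± 3.27 FPKM (SD, n = 4 each), a log2 difference of -1.23 ± 0.04 (SE, limma adjusted p = 3.43e-09). The single call upward was Mapk3 (ERK1), named after its values were seen, at 0.10 ± 0.03 (SE, limma adjusted p = 0.0274), and that count went to 0 without double mutant replicate 4, without wild type replicate 1, 3 or 4, without letter B, C or D, with letters as random blocks, with the means of the letters and with no mean trend, and to 2 with quantile normalization or upper quartile scaling.

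Of 10 feedback inhibitors that FGF and ERK signalling induces, 2 rose, 5 fell and 3 were not called, with a median of -0.21, and 1 rose with the filter at a mean of 2 FPKM. Dusp5, a phosphatase of nuclear ERK, fell from 21.8 ± 1.67 to 7.35 ± 0.992 FPKM (SD, n = 4 each), a log2 difference of -1.51 ± 0.09 (SE, limma adjusted p = 1.87e-07). Spred1, a brake on Ras signalling, fell by 0.27 ± 0.05 (SE, limma adjusted p = 0.000754). Genes of this list thus moved in both directions. Among the Pea3 members only Etv4 rose, with overlapping groups and a call that some alternatives lost. A link between this list and the Pea3 members was not tested.

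Ets factors outside the Pea3 group were mixed, with more of them up than down: of 14 tested, 7 rose, 3 fell and 4 were not called, with a median of 0.14. Elf1 rose from 3.36 ± 0.147 to 5.71 ± 0.292 FPKM (SD, n = 4 each), a log2 difference of 0.69 ± 0.06 (SE, limma adjusted p = 2.06e-06). Elk1, a factor that ERK phosphorylates, fell by 0.39 ± 0.05 (SE, limma adjusted p = 3.37e-05), and Erf, an Ets repressor under ERK control, fell by 0.53 ± 0.05 (SE, limma adjusted p = 4.21e-06).

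NuRD subunits, the partners of the Sall proteins, also went both ways: of 14 tested, 3 rose, 6 fell and 5 were not called, with a median of -0.07. Chd3, the most abundant, fell from 122 ± 2.45 to 81.5 ± 5.29 FPKM (SD, n = 4 each), a log2 difference of -0.58 ± 0.04 (SE, limma adjusted p = 9.92e-07), and Gatad2b fell by 0.42 ± 0.04 (SE, limma adjusted p = 3.89e-06). Calls upward were 1 without double mutant replicate 3, wild type replicate 1 or letter B, with letters as random blocks or with the means of the letters, and 5 with quantile normalization. Calls downward were 3 without letter C, with the means of the letters, with quantile normalization or with upper quartile scaling.

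In the dopaminergic periglomerular lineage, where Sall3 and Etv1 are known to act, the effector genes were mixed and no transcription factor of the list rose. Of 7 effector genes 3 rose, 1 fell and 3 were not called, with a median of -0.04. Th, tyrosine hydroxylase, the enzyme that limits dopamine synthesis, was at 83.5 ± 8.81 FPKM (SD, n = 4) in the double mutant and 86.9 ± 5.86 FPKM (SD, n = 4) in wild type, and its log2 difference of -0.06 ± 0.07 (SE, limma adjusted p = 0.476) was not called. That value had no stable sign: it was 0.05 without letter B and -0.18 (limma adjusted p = 0.0308) without letter A. Slc18a2, the vesicular monoamine transporter, rose by 0.54 ± 0.05 (SE, limma adjusted p = 1.05e-05), and Gchfr, a regulator of the cofactor for tyrosine hydroxylase, fell by 0.78 ± 0.16 (SE, limma adjusted p = 0.00169). The count of effector genes that fell was 2 without letter A, with quantile normalization or with no mean trend, and the count that rose was 1 with the filter at a mean of 2 FPKM. Of 6 lineage factors none rose, 4 fell and 2 were not called, with a median of -0.99. The 2 not called were Pax6 (-0.05, limma adjusted p = 0.412) and Nr2f1 (-0.01, 0.859), named after their values were seen. Whether the falls lay in this lineage or in other bulb cells was not tested. Meis2 fell from 102 ± 2.51 to 30.6 ± 2.18 FPKM (SD, n = 4 each), a log2 difference of -1.73 ± 0.05 (SE, limma adjusted p = 2.42e-09), and Dlx1 fell by 1.32 ± 0.04 (SE, limma adjusted p = 4.46e-09). Beside these values the log2 difference of Sall3 was -0.72 and that of Etv1 -0.80.

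**Figure D5:**
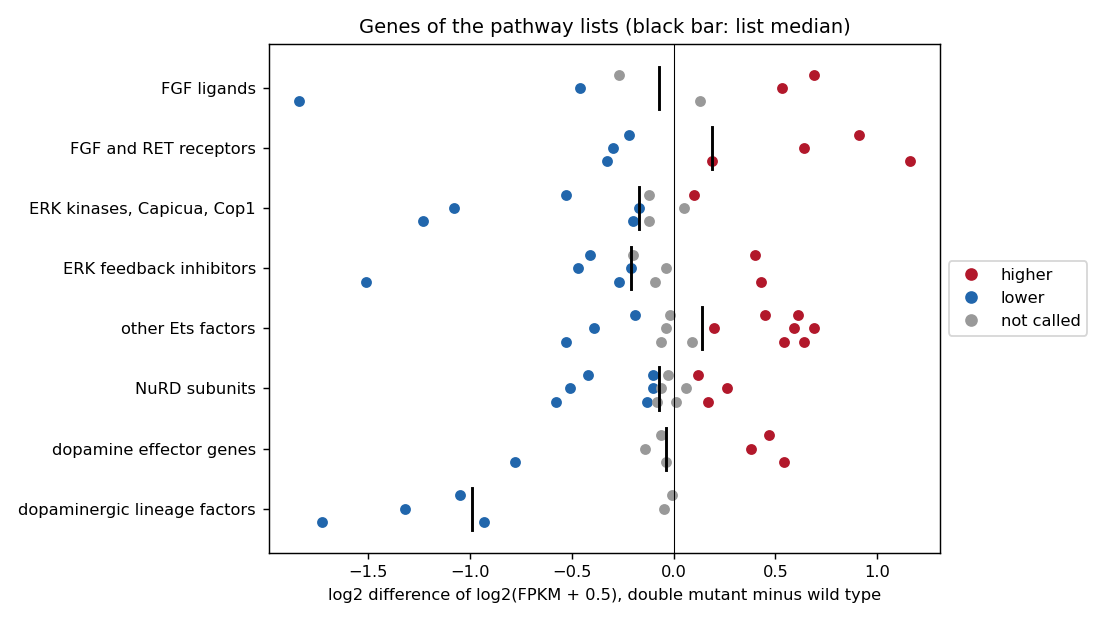
Log2 difference of log2(FPKM + 0.5), double mutant minus wild type (horizontal axis), for each tested gene of the 8 pathway lists, coloured by call, with a black bar at the list median. The lineage factors have the lowest median, at -0.99, and the other lists have genes on both sides of 0.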

How the data were processed

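RNA of the 8 olfactory bulb libraries was deposited by the authors as FPKM per gene, beside a second column per library of scaled, non-whole signal values. Per the submitters' processing notes, TopHat, Cufflinks 2.1.1 and GRCm38.p4 were used. Annotation and strand setting: not given in the sources used here. The deposited signal values step by a constant per library (98.2% to 98.4% of values are within 0.02 of a whole multiple), which gave the estimated fragments. They were used for depth and 1 alternative only, and no count model was run.

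Genes averaging 0.5 FPKM or more were tested with limma 3.58.1 (R 4.3.3) on log2(FPKM + 0.5) with a mean trend, Benjamini-Hochberg adjusted, after a check on simulated data. A fold change on this scale understates that of low genes. Exact permutation tests used all 70 assignments of libraries. Figures were made with matplotlib 3.10.9. The members and gene lists were chosen with earlier results of these data known. Genes named from the 8 pathway lists are the 2 with the smallest p and the most abundant one, plus the 3 genes closest to each member. Some genes that this rule names are not reported here. Cop1 is listed under its older symbol Rfwd2. Coordinates come from GENCODE on GRCm38, and upstream windows from RefSeq promoters (GRCm38.p6), which held 4 of the 7 members. Alternatives changed pseudocount, filter, scaling, measure, blocking, variance trend and the libraries used.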

Additional observations from a re-analysis of the deposited data

How the results depend on the processing

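The number of members called was 6 and stayed between 5 and 6 under the 24 alternatives, and Sall1, Sall3, Etv1 and Etv5 were called lower in all of them. Sall1 ranged from -0.91 to -0.70, Sall3 from -0.76 to -0.64 and Etv1 from -0.88 to -0.72. Sall2 was lost in 7 and Etv4 in 4 of the 24, and neither changed sign. Upper quartile scaling turned the split of all called genes from 4127 higher and 5237 lower to 5136 higher and 3820 lower. The sign of Th turned with upper quartile scaling (0.03), quantile normalization (0.03) and without letter B (0.05), and that of the Sall1 to Sall3 ratio without letter A (0.01). The cause was not tested. The replicate block called 9189 genes against 9364 and the same number of members, 6. Deviations of same-numbered libraries of the 2 groups correlated at -0.052, 0.001, 0.005 and -0.03, so the numbers are not shown to pair them. Taking letters as random blocks left 8471 calls, and the means of the letters 7693. The signal of Sall4 is too shallow for a comparison, and with 4 libraries per group no exact p can go below 0.0286.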
